A study of Mus musculus with 9 samples.

Results

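The genes described here code for actin-like and other structural proteins of the sperm head, namely Actl7a, Actl7b, Actl9, Actrt1, Actrt2, Actrt3, Ccin, Cylc1, Cylc2 and Capza3. They were chosen by name, as known components or partners of the perinuclear theca and as testis-specific actin-like and actin-capping proteins, and make up 10 of the 32035 genes quantified. The choice was made with earlier results of these data known. RNA was sequenced from whole testes of 15-week-old males in 3 genotypes, with 3 samples each: C57Bl6/N wildtype mice (WT), Kpna6ΔIBB/ΔIBB mice and Kpna6-/- mice. Both mutant lines had been backcrossed to the C57Bl6/N background. Kpna6 codes for importin α7, an adaptor that carries proteins into the nucleus together with importin β. In Kpna6ΔIBB/ΔIBB mice exon 2 is deleted and a truncated importin α7 without the importin β binding domain remains. In Kpna6-/- mice a gene trap lies in intron 1, and, as described for this line, a testis-specific first exon downstream of the trap still yields full-length protein in germ cells while Sertoli cells lack it.

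The perinuclear theca is a rigid shell of insoluble protein that encloses the sperm nucleus. Its front portion glues the acrosome, the secretory vesicle needed to enter the egg, to the nuclear envelope, and its rear portion carries proteins that activate the egg. It is built by round and elongating spermatids, the haploid cells that shape the sperm head, from actin-like proteins, a capping protein of actin filaments, the kelch-repeat protein calicin and the very basic cylicins. In mice, loss of several of these proteins detaches the acrosome or deforms the head.

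The genes share a compact structure. In the GRCm38 annotation, the coding transcripts of 7 of the 10 (Actl7a, Actl7b, Actl9, Actrt1, Actrt2, Ccin and Capza3) had a single exon, Actrt3 had 2 exons, and Cylc1 and Cylc2 had 5. Actl7a (chr4:56743413-56744925, + strand) and Actl7b (chr4:56740005-56741443, − strand) are neighbours that point away from each other. Also on chromosome 4 lie Ccin (chr4:43983483-43985423), Cylc2 (chr4:51216678-51230272) and Actrt2 (chr4:154666433-154667867). These 5 genes lie 25.0 to 85.7 Mb from Kpna6 itself (chr4:129643980-129672767). Actrt1 (chrX:46329007-46330345) and Cylc1 (chrX:111110418-111125854) are X-linked. Actl9 (chr17:33432896-33434268), Actrt3 (chr3:30597073-30599939) and Capza3 (chr6:140041252-140042778) lie apart from the others.

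Promoter sequences from RefSeq (GRCm38.p6) were given for 8 of the 10 genes; those of Cylc2 and Capza3 were not analysed here. The 120 bases before the start of transcription are shown for the 5 genes that hold a full or near-full cAMP response element and for Actrt3, the gene with the lowest fold change in the mutant. cAMP response elements are the sites bound by CREM, an activator of many genes in round spermatids. Capitals mark TGACGTCA, TGATGTCA (on either strand) and GTTGCCA, the latter being part of the X-box bound by RFX factors. The motifs were picked after these sequences had been read. The windows are chr4:56743302-56743421 (+) for Actl7a, chr4:56741426-56741545 (−) for Actl7b, chr17:33432779-33432898 (+) for Actl9, chr4:43983384-43983503 (+) for Ccin, chrX:111110298-111110417 (+) for Cylc1 and chr3:30599871-30599990 (−) for Actrt3.
Actl7a: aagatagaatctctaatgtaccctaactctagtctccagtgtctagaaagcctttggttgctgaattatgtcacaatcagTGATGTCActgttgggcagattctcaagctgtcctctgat
Actl7b: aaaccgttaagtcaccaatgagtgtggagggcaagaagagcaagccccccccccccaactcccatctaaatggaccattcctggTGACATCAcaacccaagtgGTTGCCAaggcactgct
Actl9: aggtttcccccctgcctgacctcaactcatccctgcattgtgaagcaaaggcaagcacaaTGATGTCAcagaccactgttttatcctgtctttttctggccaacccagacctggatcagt
Ccin: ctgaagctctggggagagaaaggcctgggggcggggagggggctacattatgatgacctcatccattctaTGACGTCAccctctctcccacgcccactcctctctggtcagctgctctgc
Cylc1: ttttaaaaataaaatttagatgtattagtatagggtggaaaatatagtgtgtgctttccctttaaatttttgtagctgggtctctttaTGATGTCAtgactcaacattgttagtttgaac
Actrt3: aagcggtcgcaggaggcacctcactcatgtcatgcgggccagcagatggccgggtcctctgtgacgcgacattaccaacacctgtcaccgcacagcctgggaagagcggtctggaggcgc
The full element TGACGTCA stood in the Ccin promoter, 50 to 43 bases before the start. The near-full form TGATGTCA stood 40 to 33 bases before the start of Actl7a, 36 to 29 bases before that of Actl7b (on the opposite strand), 60 to 53 bases before that of Actl9 and 32 to 25 bases before that of Cylc1. In these 120 bases, 5 of 8 genes held either form, against 3.31% of all 32851 promoters in the table. GTTGCCA was found in Actl7b and in Actrt1, where it lies 81 to 75 bases before the start, and in 2.09% of all promoters. None of the 3 motifs was found in Actrt2 or Actrt3. No TATAAA box lay in the 120 bases of any of the 8 genes, against 6.34% of all promoters. A match describes letters only.

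Libraries held between 24859751 and 31484692 estimated counts on genes, so that Actrt1, the least abundant of the 10, still had 454 to 611 counts per sample. The targeted gene was checked first. Kpna6 stood at 98.29, 162.8 and 176.2 TPM (a level scaled by transcript length and library size) in the WT samples, at 31.96, 34.17 and 34.84 TPM in Kpna6ΔIBB/ΔIBB and at 133.8, 136.7 and 141 TPM in Kpna6-/-. It was lower in Kpna6ΔIBB/ΔIBB than in WT (log2 fold change -1.79 ± 0.15 SE, edgeR adjusted P-value 1.94e-05). In Kpna6-/- the values lay within those of WT (log2 fold change -0.18 ± 0.14, adjusted P-value 0.586), so total Kpna6 RNA did not set the Kpna6-/- samples apart. WT replicate 1 had the lowest Kpna6 level of the WT samples. Replicates may be technical or biological as far as the labels go, and the P-values measure the spread between these samples.

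All 10 genes were expressed in WT testis, at levels from 20.12 ± 1.06 TPM (SD, n = 3) to 590.5 ± 39.8 TPM. Actl7b was the highest, at rank 216 among all genes, followed by Actrt2 (457.3 ± 35 TPM), Actl9 (379.6 ± 5.4 TPM), Cylc2 (353.3 ± 30.1 TPM) and Actl7a (294.4 ± 22.1 TPM). Capza3 (212.2 ± 11.6 TPM) and Ccin (190.9 ± 23.2 TPM) came next, and Cylc1 (58.19 ± 3.27 TPM), Actrt3 (49.78 ± 6.89 TPM) and Actrt1 (rank 6460) were the lowest. The ranges over the WT samples overlapped for the neighbours Actl9 and Cylc2, Capza3 and Ccin, and Cylc1 and Actrt3, and not for the other neighbours in this order. The place of Cylc2 depended on its transcripts, as given further on.

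In Kpna6ΔIBB/ΔIBB testes, 7 of the 10 genes fell against WT and none rose (edgeR quasi-likelihood test, adjusted P-value below 0.05, adjusted over 18797 genes). The changes ranged from -35.1% for Actrt3 to -15.2% for Actl7b. Among all genes tested, 18.9% fell and 17.7% rose, with 36.6% called in either direction. The samples of Kpna6ΔIBB/ΔIBB and WT did not overlap for the same 7 genes, all lower, against 49.9% of all genes in either direction, 24.7% lower and 25.3% higher. The median log2 fold change of the 10 genes was -0.46, against 0.01 for all genes tested, and their summed normalized level, in CPM (counts relative to the size of the library), went from 2493 to 2626 in WT to 1952 to 1997 in Kpna6ΔIBB/ΔIBB. In whole testis, fewer spermatids and less RNA per spermatid cannot be told apart. Levels per sample below are CPM normalized over all 9 samples, and fold changes come from a fit of the 2 groups compared.

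**Figure D1:**
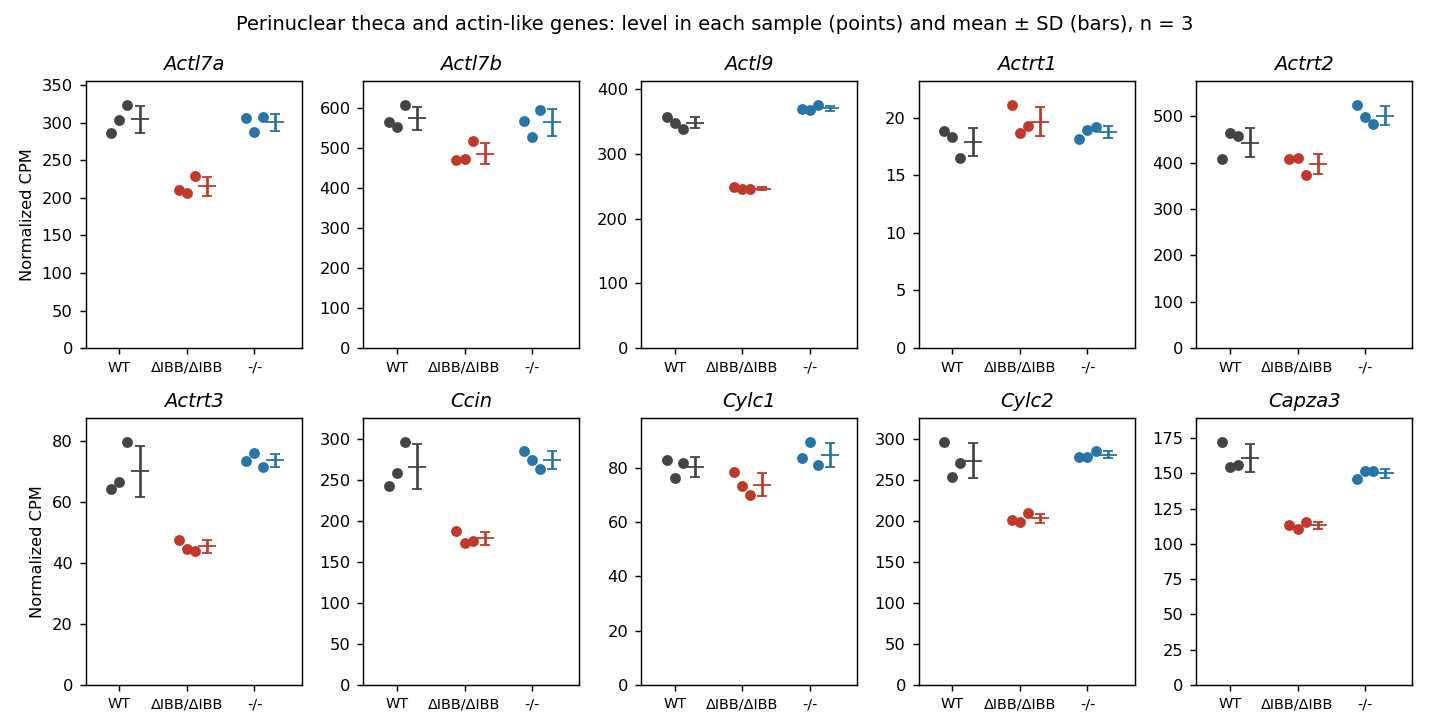
Normalized CPM (vertical axes, from 0) of the 10 genes in each sample of WT, Kpna6ΔIBB/ΔIBB and Kpna6-/- testes; points are samples and bars show mean ± SD (n = 3). For 7 genes every Kpna6ΔIBB/ΔIBB point lies below every WT point, as for Actl9, with a mean of 246.8 against 348.3 in WT.

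The actin-like proteins of the Actl group are divergent relatives of actin made in male germ cells. ACTL7A sits between the acrosome and the nucleus and is needed to hold them together. Actl7a measured 286.7, 303.6 and 322.9 CPM in WT, 210.3, 206.1 and 229.3 CPM in Kpna6ΔIBB/ΔIBB and 306.3, 287.6 and 307.6 CPM in Kpna6-/-. All Kpna6ΔIBB/ΔIBB samples were below all others (log2 fold change to WT -0.50 ± 0.05 SE, edgeR adjusted P-value 6.69e-05). Its neighbour Actl7b, needed for the shaping of the head and flagellum, measured 565.4, 550.7 and 605.9 CPM in WT, 469.2, 470.9 and 515.6 CPM in Kpna6ΔIBB/ΔIBB and 567.2, 527 and 595 CPM in Kpna6-/-. The groups again did not overlap, with a smaller shift (-0.24 ± 0.05, adjusted P-value 0.00302). This call was lost on the TPM scale (limma, -0.11, adjusted P-value 0.178). An antisense gene, Gm26657, covers 1308 bases of Actl7b and was listed at 0 counts in every sample; the libraries do not mark strand, so that reads of the pair cannot be told apart.

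Actl9, whose protein binds ACTL7A, had the tightest replicates of the set. It measured 356.7, 348.7 and 339.6 CPM in WT, 248.7, 245.8 and 245.8 CPM in Kpna6ΔIBB/ΔIBB and 369.8, 368 and 375.5 CPM in Kpna6-/-. The Kpna6ΔIBB/ΔIBB samples were far below the rest (-0.49 ± 0.035, adjusted P-value 1.24e-05 against WT), and the Kpna6-/- samples were all slightly above WT.

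The actin-related proteins of the Actrt group went different ways. ACTRT1 and ACTRT2 are theca proteins found with ACTL7A, and ACTRT3 pairs with profilin-3. Actrt3 measured 64.25, 66.36 and 79.64 CPM in WT, 47.64, 44.69 and 43.8 CPM in Kpna6ΔIBB/ΔIBB and 73.47, 75.92 and 71.59 CPM in Kpna6-/-. This was the lowest fold change to WT of the 10 genes (-0.62 ± 0.08, adjusted P-value 0.000164), although Actrt3 was among the least abundant. Actrt2 measured 407.5, 465.1 and 456.7 CPM in WT, 407.9, 410.4 and 372.7 CPM in Kpna6ΔIBB/ΔIBB and 523.8, 497.8 and 482.6 CPM in Kpna6-/-. WT replicate 1 lay among the Kpna6ΔIBB/ΔIBB samples, and the difference to WT just missed the threshold (-0.15 ± 0.06, adjusted P-value 0.0508). Without WT replicate 1 it passed (-0.21, adjusted P-value 0.00579), and without any other single sample it missed (adjusted P-values 0.0673 to 0.168).

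X-linked Actrt1 measured 18.85, 18.31 and 16.53 CPM in WT, 21.06, 18.62 and 19.23 CPM in Kpna6ΔIBB/ΔIBB and 18.15, 18.92 and 19.14 CPM in Kpna6-/-. Its groups overlapped (0.14 ± 0.08 against WT, adjusted P-value 0.211), and it was the only gene of the 10 with a value above 0 in this comparison. With library size as the only scaling it was called higher (0.23, adjusted P-value 0.0401), as it was on the TPM scale (0.25, adjusted P-value 0.0377).

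Capza3 codes for the germ-cell α subunit of the actin-capping protein, which closes the growing end of actin filaments. It measured 172.3, 154.6 and 155.7 CPM in WT, 113.4, 110.8 and 115.2 CPM in Kpna6ΔIBB/ΔIBB and 146.2, 152 and 151.8 CPM in Kpna6-/-. The Kpna6ΔIBB/ΔIBB samples lay below all others by a wide margin (-0.50 ± 0.05, adjusted P-value 3.74e-05), and Kpna6-/- lay just below WT. The gene overlaps 206 bases of Plcz1 on the opposite strand, the gene of the egg-activating phospholipase of the theca, which moved alike (-0.52 ± 0.04, adjusted P-value 1.43e-05). Reads of the overlap cannot be assigned without strand. The sum of both genes had a log2 fold change of -0.51.

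Calicin and the cylicins are structural proteins of the calyx, the portion of the theca around the rear of the nucleus. Ccin measured 242.7, 258.1 and 296 CPM in WT, 187, 172.5 and 175.8 CPM in Kpna6ΔIBB/ΔIBB and 285, 274 and 262.6 CPM in Kpna6-/-. The groups were far apart (-0.57 ± 0.07 against WT, adjusted P-value 0.000103). Cylc2 measured 296.2, 253 and 271.2 CPM in WT, 201.1, 198.5 and 209.4 CPM in Kpna6ΔIBB/ΔIBB and 278.1, 277.7 and 285.3 CPM in Kpna6-/-, and it too fell without overlap (-0.43 ± 0.05, adjusted P-value 0.000171). X-linked Cylc1 measured 82.63, 76.01 and 81.82 CPM in WT, 78.31, 73.09 and 69.89 CPM in Kpna6ΔIBB/ΔIBB and 83.43, 89.42 and 81.12 CPM in Kpna6-/-. Its WT and Kpna6ΔIBB/ΔIBB samples overlapped and the difference missed the threshold (-0.12 ± 0.06, edgeR adjusted P-value 0.129). The 2 X-linked genes were both among the 3 not called, where 36.6% of all genes tested were called. A link to the X chromosome was not tested. The point estimate of Cylc1 was 0.01 on the TPM scale.

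In Kpna6-/- testes none of the 10 genes was called against WT by edgeR, where 1.6% of 18681 genes were called, 0.889% higher and 0.712% lower. The median log2 fold change was 0.05, with values from -0.10 for Capza3 to 0.18 for Actrt2. Unadjusted P-values were below 0.05 for 2 genes, Actl9 (0.09 ± 0.04, P-value 0.0254, adjusted 0.258) and Actrt2 (0.18 ± 0.05, P-value 0.00397, adjusted 0.106). The samples of both genes did not overlap with WT, and neither did those of Capza3 (-0.10 ± 0.05, adjusted P-value 0.353), where 20% of all genes tested showed no overlap, 10% higher and 9.98% lower. DESeq2 and edgeR without a filter on low counts each called 1 gene, Actrt2, as higher (adjusted P-values 0.0281 and 0.0358).

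The direct comparison of the mutant lines asked whether their effects differed. In Kpna6ΔIBB/ΔIBB testes, 9 of the 10 genes were lower than in Kpna6-/- testes and none was higher, while 30.3% of all genes tested were called, 16.8% lower and 13.5% higher. The samples of the lines did not overlap for the same 9 genes, against 44.4% of all genes, 23.1% lower and 21.4% higher. The differences were lowest for Actrt3 (log2 fold change -0.70 ± 0.05), Ccin (-0.62 ± 0.04) and Actl9 (-0.59 ± 0.03, adjusted P-value 5.79e-07). Actrt2 (-0.34 ± 0.04, adjusted P-value 0.000124) and Cylc1 (-0.20 ± 0.05, adjusted P-value 0.0115), which were not called against WT, were called here. Their Kpna6-/- means of 501.4 and 84.66 CPM were above the WT means of 443.1 and 80.16 CPM. The call of Cylc1 did not hold without Kpna6-/- replicate 2 (adjusted P-value 0.0604), without Kpna6ΔIBB/ΔIBB replicate 2 (0.0504) or with library size only (0.155), and that of Actl7b (-0.22 ± 0.05, adjusted P-value 0.00618) was lost with library size only (0.0705). On the TPM scale, limma called neither Actl7b (-0.07, adjusted P-value 0.314) nor Cylc1 (-0.06, adjusted P-value 0.506). Actrt1 had a fold change of 0.06 ± 0.07 (adjusted P-value 0.544). This comparison and that with WT share the Kpna6ΔIBB/ΔIBB samples.

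**Figure D2:**
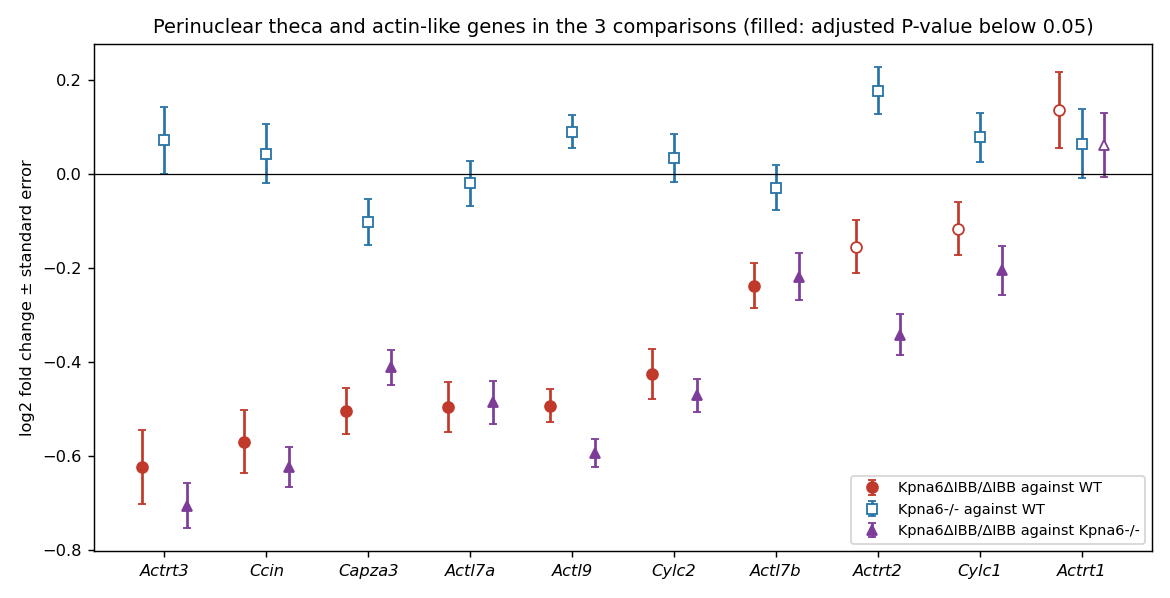
log2 fold change ± SE (vertical axis) of the 10 genes for Kpna6ΔIBB/ΔIBB against WT (circles), Kpna6-/- against WT (squares) and Kpna6ΔIBB/ΔIBB against Kpna6-/- (triangles), from edgeR; filled symbols have adjusted P-values below 0.05. The 7 filled circles run from -0.62 (Actrt3) to -0.24 (Actl7b), and no square is filled.

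The falls were not limited to these genes. Of 24 other genes of the theca, acroplaxome and head-shaping machinery, 16 fell and none rose in Kpna6ΔIBB/ΔIBB against WT, with a median log2 fold change of -0.22. Of all genes tested, 18.9% fell and 17.7% rose. The lowest of the 24 were Actl10 (-0.68 ± 0.10), another actin-like gene, and Fam209 (-0.58 ± 0.07), which codes for a partner of the nuclear envelope protein DPY19L2 in acrosome attachment. Against Kpna6-/-, 16 were lower, led by Actl10 (-0.68 ± 0.10) and Actl11 (-0.57 ± 0.04), while 16.8% of all genes were lower. None of the 24 was called in Kpna6-/- against WT (median -0.04), where 1.6% of all genes were called.

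Widely expressed actin genes showed another picture. Of 26 actins, actin-related, capping and actin-binding genes, 10 rose and 6 fell in Kpna6ΔIBB/ΔIBB against WT, with a median of 0.07. The shares of all genes were 17.7% higher and 18.9% lower. Capg, a capping protein of motile cells (0.86 ± 0.19), and Arpc4, a subunit of the ARP2/3 complex that branches actin filaments (0.66 ± 0.08), were the highest. Actr10, a subunit of dynactin (-0.33 ± 0.04), and Cfl2, an actin-severing cofilin (-0.30 ± 0.04), were the lowest. Against Kpna6-/-, 7 of the 26 were higher and 5 lower, while 13.5% of all genes were higher and 16.8% lower. In Kpna6-/- against WT none of the 26 was called, against 1.6% of all genes. The summed level of the 26 genes ran from 3780 to 3856 CPM in WT and from 3761 to 3936 CPM in Kpna6ΔIBB/ΔIBB, which overlap.

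Markers of the cells that make the theca moved in the same direction as the theca genes. The marker lists, like the other lists, were chosen with earlier results of these data known. The counts below stand beside 18.9% of all genes that fell and 17.7% that rose in Kpna6ΔIBB/ΔIBB against WT. Of 12 round spermatid markers, 11 fell in Kpna6ΔIBB/ΔIBB against WT (median -0.57), among them the sperm calcium channel gene Catsper3 (-0.72 ± 0.10) and Tex36 (-0.72 ± 0.08), and their summed level went from 1608 to 1699 CPM in WT to 1201 to 1362 CPM. All 12 elongating spermatid markers fell (median -0.37), including Tnp1, the gene of a transition protein of chromatin (-0.59 ± 0.07), and Smcp, a gene of the mitochondrial capsule (-0.48 ± 0.04). Their sum went from 19620 to 21757 CPM in WT to 15039 to 16829 CPM. Of 10 pachytene spermatocyte markers 4 fell (median -0.14), with the germ-cell glycolytic gene Pgk2 at -0.27 ± 0.04 and Adam5 at -0.18 ± 0.03. All 12 Sertoli cell markers rose (median 0.62), led by the follicle-stimulating hormone receptor gene Fshr (1.35 ± 0.17) and Cst12 (0.96 ± 0.09), from summed levels of 1244 to 1356 CPM to 1853 to 2193 CPM. In Kpna6-/- against WT, no round or elongating spermatid marker was called (medians -0.10 and 0.05), while 4 of 12 Sertoli cell markers rose. Of all genes, 0.889% rose in that comparison. No marker was at 0 in any sample. The part of these shifts in the falls of the theca genes was not tested.

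Among the remaining lists, 2 rose and 2 fell of 10 leptotene to zygotene markers in Kpna6ΔIBB/ΔIBB against WT. Of 10 spermatogonial markers 3 rose and 1 fell, of 8 Leydig cell markers 2 rose, of 8 macrophage markers 3 rose, and of 8 peritubular and endothelial markers 3 rose and 1 fell. Of all genes tested, 17.7% rose and 18.9% fell. The counts of these short lists were not tested against those shares.

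**Figure D3:**
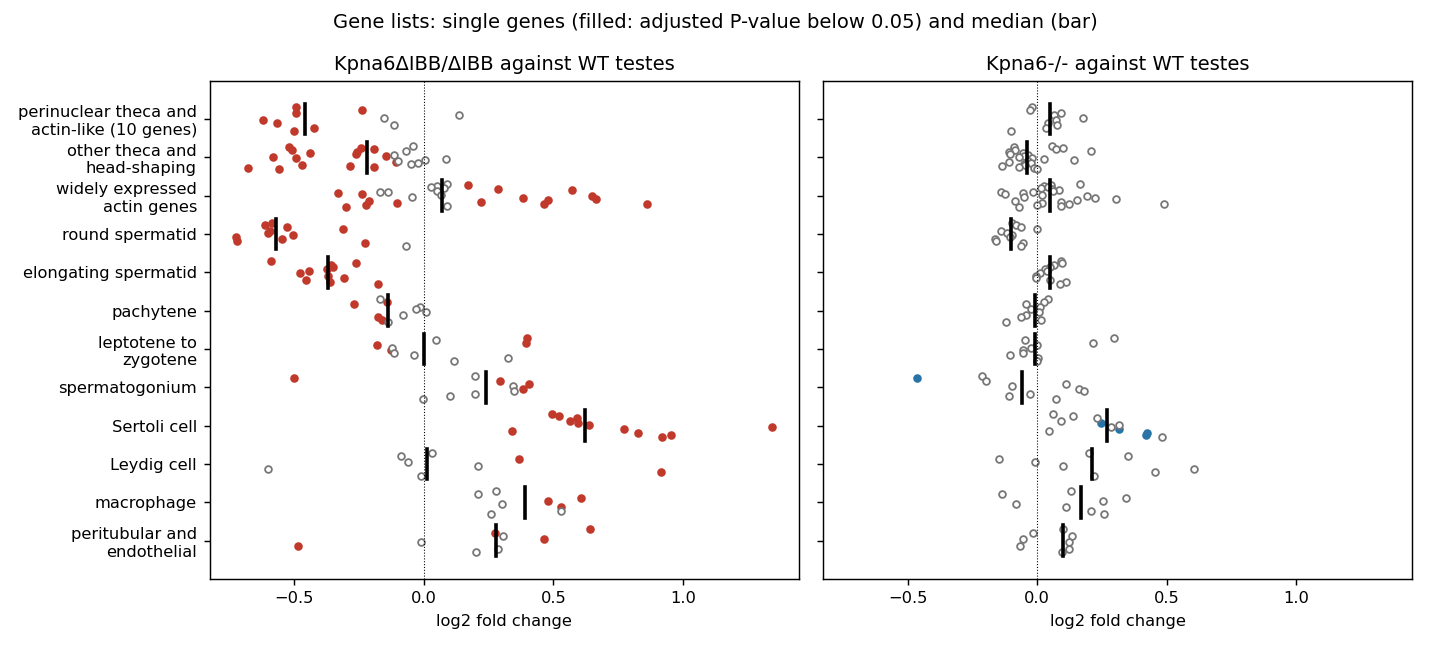
log2 fold change (horizontal axis) of each gene of 12 lists in Kpna6ΔIBB/ΔIBB against WT (left) and Kpna6-/- against WT (right); filled points have edgeR adjusted P-values below 0.05 and black bars mark the list's median. In the left panel the theca genes (median -0.46) lie with the round (-0.57) and elongating (-0.37) spermatid markers, and Sertoli cell markers (0.62) lie on the other side of 0.

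Relative to the round spermatid markers, 7 of the 10 genes overlapped between Kpna6ΔIBB/ΔIBB and WT and 3 were higher in Kpna6ΔIBB/ΔIBB. The level of each gene was divided by the summed CPM of the 12 round spermatid markers in the same sample. The ratio of Actl7a was 18.3 ± 1.03% in WT and 17.1 ± 0.207% in Kpna6ΔIBB/ΔIBB, that of Cylc2 was 16.5 ± 1.09% and 16.1 ± 0.652%, and that of Capza3 was 9.69 ± 0.575% and 8.99 ± 0.463%, with overlapping samples (exact permutation test, two-sided, P-values 0.3, 0.8 and 0.3). Overlap was also seen for Actl9, Actrt2, Actrt3 and Ccin. The 3 genes with a higher ratio in every Kpna6ΔIBB/ΔIBB sample than in any WT sample were Actl7b (38.5 ± 0.689% against 34.6 ± 0.964%), Actrt1 (1.56 ± 0.157% against 1.08 ± 0.0928%) and Cylc1 (5.88 ± 0.666% against 4.83 ± 0.109%). Each had an exact permutation P-value of 0.1, the smallest that 3 against 3 samples allow. Divided by the summed elongating spermatid markers instead, Actrt1, Actrt2 and Cylc1 were higher in Kpna6ΔIBB/ΔIBB without overlap. Actrt3 was lower without overlap (0.281 ± 0.0136% against 0.336 ± 0.0609%, exact permutation P-value 0.1). Actl7b overlapped with WT there (exact permutation P-value 0.5), as did Actl7a, Actl9, Ccin, Cylc2 and Capza3. The share of all genes was not computed for this divisor. Much of its sum came from Tnp1, Tnp2, Prm1 and Prm2 (means of 1945, 2995, 3578 and 4839 CPM in WT). The authors reported less RNA of these genes in sorted round spermatids of Kpna6ΔIBB/ΔIBB mice. The divisor thus need not follow the number of spermatids, and a gene that fell less than this sum comes out higher by construction.

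Divided by the round spermatid markers, the samples were higher without overlap for 64.2% of all genes and lower without overlap for 3.76%. The 3 of 10 was thus a smaller share than in all genes. In Kpna6-/-, the ratio was higher than in WT without overlap for 4 genes, namely Actl9 (23.7 ± 0.765% against 21 ± 0.895%), Actrt1, Actrt2 and Cylc1 (exact permutation P-value 0.1 for each), against 19% of all genes higher and 3.13% lower. Actrt1 and Cylc1 thus had higher ratios without overlap in both mutants, as 64.2% of all genes had in Kpna6ΔIBB/ΔIBB. With these markers as scaling factor, edgeR called neither gene in Kpna6-/- against WT. Actrt1 was at 0.15 there (edgeR adjusted P-value 0.371). The adjusted P-value of Cylc1 was at least 0.206 under every alternative that kept all samples. Relative to the elongating spermatid markers, Kpna6-/- overlapped with WT for Actl9 (exact permutation P-value 0.4), Actrt1 (0.8), Actrt2 (0.3) and Cylc1. Capza3 was lower there without overlap (0.688 ± 0.0245% against 0.766 ± 0.0483%, exact permutation P-value 0.1). The margin was small, with 0.703% in the highest Kpna6-/- sample and 0.711% in the lowest WT sample. For this divisor the share of all genes without overlap was not computed, so the result of Capza3 cannot be set against it.

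With the round spermatid markers as scaling factor in edgeR, log2 fold changes moved up, by a median of 0.39 over all genes against WT, and the values below are to be read against a median of 0.40 for all genes on this scale. Of the 10 genes, 1 was called lower and 3 higher against WT, where 2.76% of all genes were called lower and 62.5% higher. Actrt3 was the lower one (-0.23, adjusted P-value 0.0438). Actrt1 (0.53, adjusted P-value 0.000229), Cylc1 (0.28, adjusted P-value 0.00895) and Actrt2 (0.24, adjusted P-value 0.0181) were called higher, and of these only Actrt1 was above the median of all genes. Ccin (-0.17, adjusted P-value 0.0816) and the other 5 genes were not called. Against Kpna6-/-, 3 genes were called lower on this scale (Actrt3 at -0.39, Ccin at -0.31 and Actl9 at -0.27) and 1, Actrt1, was called higher (0.38), where 2.91% of all genes were called lower and 54.2% higher. The scaling factor was the plain sum of the 12 markers. Its most abundant genes, Tssk1 (338.4 CPM in WT) and Spag6l (297.6 CPM), had the smallest falls (log2 fold change -0.23 and -0.07). The median of the list was -0.57. Calls on this scale, that of Actrt3 among them, depend on these weights, and other weights were not tested. The falls given earlier are on the scale of whole testis RNA.

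**Figure D4:**
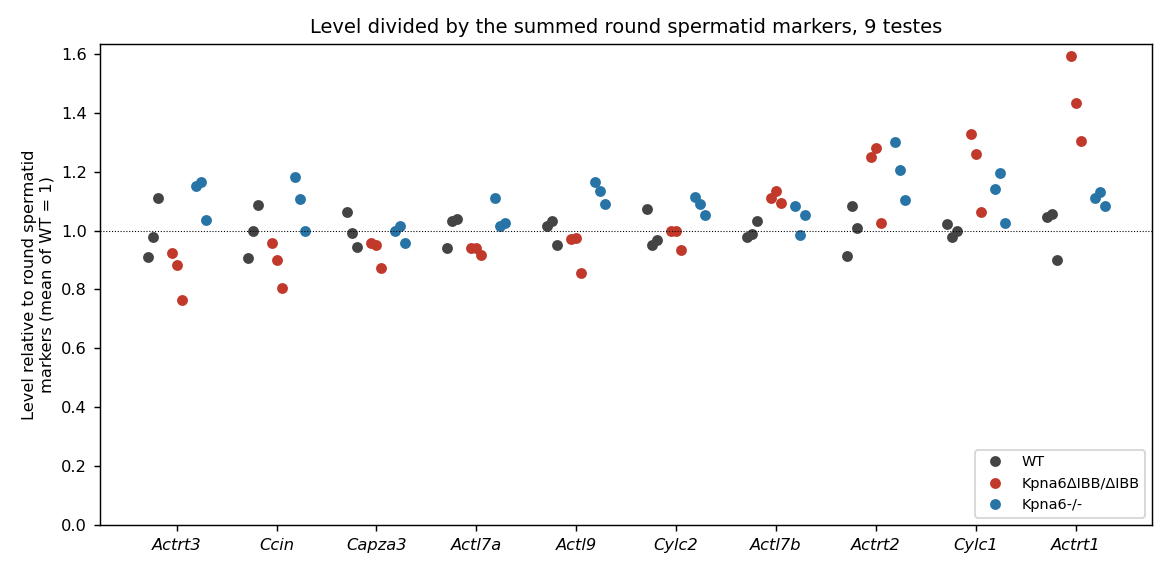
Level of each gene divided by the summed round spermatid markers of the same sample, with the WT mean set to 1 (vertical axis), for 3 samples per genotype. The Kpna6ΔIBB/ΔIBB points of Actrt1, Cylc1 and Actl7b lie above all WT points, and those of the other 7 genes overlap with WT.

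On the TPM scale, which corrects for length, Cylc2 RNA was mostly not the coding transcript. By estimated counts the longer coding Cylc2-201 held more than Cylc2-202 in every sample, for instance 4998 against 3785 in WT replicate 1. The noncoding Cylc2-202 held 60.76 ± 0.945% of the gene's TPM in WT, 63.03 ± 0.294% in Kpna6ΔIBB/ΔIBB and 62.13 ± 1.2% in Kpna6-/-. The Kpna6ΔIBB/ΔIBB and WT shares did not overlap but differed by little (exact permutation test, two-sided, P-value 0.1, the smallest possible with 3 samples each). The coding Cylc2-201 measured 138.5 ± 10.2 TPM in WT, 107.9 ± 2.69 TPM in Kpna6ΔIBB/ΔIBB and 137.5 ± 2.31 TPM in Kpna6-/-, and the other coding transcript, Cylc2-203, was listed at 0. Counted by coding RNA, Cylc2 would stand below Ccin and above Cylc1 in the WT order. For Capza3, the noncoding Capza3-202 held 8.76 ± 0.726% of the TPM in WT and 8.603 ± 0.704% in Kpna6ΔIBB/ΔIBB (exact permutation P-value 0.8). These shares rest on the assignment of reads shared between transcripts by kallisto.

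**Figure D5:**
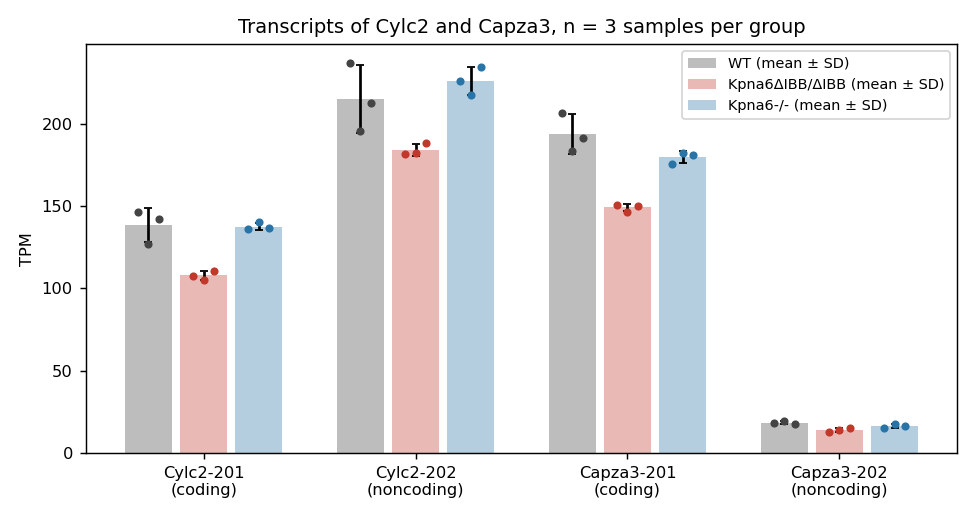
TPM (vertical axis, from 0) of the transcripts of Cylc2 and Capza3 in the 3 genotypes; bars show means, whiskers SD and points the 3 samples. Cylc2-202, which is noncoding, is above the coding Cylc2-201 in every group, for instance 214.8 against 138.5 TPM in WT.

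The genes differed in how closely they followed the set. Pearson's r between the log2 CPM of each gene and the mean standardized profile of the 10 genes, over the 9 samples, was 0.99 for Actl9, 0.97 for Actrt3 and Ccin, 0.96 for Cylc2, 0.94 for Actl7a, 0.92 for Capza3, 0.83 for Actl7b and Cylc1, 0.81 for Actrt2 and -0.44 for Actrt1. The points share the 3 genotypes, and each gene is part of the mean. Of the genes outside the set, those with the most similar profile were Fam71f1 (r = 0.996), 4933400A11Rik (0.993), Aif1 (0.991), Ufd1 (0.991) and Trim80 (0.990). Trim80, for example, measured 203.9, 208.7 and 224.7 CPM in WT and 138.9, 127.2 and 125.4 CPM in Kpna6ΔIBB/ΔIBB.

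The surroundings of the genes were examined because Kpna6 and 5 of the 10 share chromosome 4. Of the genes tested within 5 Mb of each, between 27.3% (Actrt1) and 47.6% (Actrt3) were called in Kpna6ΔIBB/ΔIBB against WT, where 36.6% of all genes were. For Ccin this was 46%, for Cylc2 37.5%, for Actl7a and Actl7b 43.5% and for Actrt2 33%. In Kpna6-/- against WT the share was 9.43% around Capza3 (5 of 53 genes) and at most 2.94% around the other 9, against 1.6% of all genes.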

How the data were processed

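Poly(A) RNA from testis was sequenced as unstranded paired-end libraries in 9 samples, 3 per genotype. The authors quantified transcripts with kallisto (version 0.45 in the submitters' processing notes) and deposited estimated counts and TPM values for 96626 transcripts per sample. For the present analysis, 95301 of these were assigned to 32035 genes by GENCODE M21 (GRCm38); the other 1325 held under 1% of the counts. Estimated counts were summed per gene and rounded. Counts on genes ranged from 24859751 to 31484692 per sample.

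Genotypes were compared pairwise with edgeR 4.0.16 (R 4.3.3; filterByExpr, TMM normalization, quasi-likelihood F test, no covariates), with Benjamini-Hochberg adjustment over all genes tested and a threshold of 0.05. Shares and ratios were compared by exact permutation tests. Alternatives were DESeq2 1.42.0, limma 3.58.1 on log2(TPM + 1) or log2(TPM + 0.1), other scalings and filters, all 9 samples in 1 fit, a replicate block, and leaving out each sample. The edgeR, DESeq2 and limma procedures were run on simulated data in which few genes changed, evenly up and down. That setting does not test how the scaling decides calls when many genes change. Genes sharing at least 100 bases at 95% identity with a member were searched in the transcripts: Gm26657 (Actl7b) and Plcz1 (Capza3), both on the opposite strand, were found.

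The genes and lists were chosen with earlier results of these data known. All 10 genes are named; from every other list described in detail came those 2 called genes in each direction that had changed most, and 5 further genes were taken for having the most similar profile over the 9 samples.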

Additional observations from a re-analysis of the deposited data

Results flagged for a closer look

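The difference between the effects of the 2 mutations was past the threshold for 9 genes, by the direct comparison of Kpna6ΔIBB/ΔIBB with Kpna6-/- testes (edgeR quasi-likelihood test, Benjamini-Hochberg adjusted over 18752 genes). The log2 fold changes were -0.49 for Actl7a, -0.22 for Actl7b, -0.59 for Actl9, -0.34 for Actrt2, -0.70 for Actrt3, -0.62 for Ccin, -0.20 for Cylc1, -0.47 for Cylc2 and -0.41 for Capza3. All samples of the 2 lines were apart for each of the 9 genes, which was so for 23.1% of all genes tested in this direction. With the round spermatid markers as scaling factor, 3 of the 9 differences, those of Actl9 (-0.27), Actrt3 (-0.39) and Ccin (-0.31), remained past the threshold as lower values, where 2.91% of all genes were called lower.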

How the results depend on the processing

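Under 10 alternatives that keep all samples, direction and side of the threshold stayed the same for 71 of 92 values of the 10 genes in Kpna6ΔIBB/ΔIBB against WT, 88 of 92 in Kpna6-/- against WT and 79 of 92 in Kpna6ΔIBB/ΔIBB against Kpna6-/-. The scaling to round spermatid markers gave 4 genes called against WT and 4 against Kpna6-/-. It moved all genes up by a median of 0.39 and 0.32 in these comparisons and by 0.087 in Kpna6-/- against WT, so that small falls changed sign by construction, namely those of Actl7b (0.16), Actrt2 (0.24) and Cylc1 (0.28) against WT, of Actl7b (0.10) and Cylc1 (0.12) between the mutants, and of Actl7a (0.067) and Actl7b (0.058) in Kpna6-/- against WT. Cylc1 against WT was 0.0083 and 0.0085 with limma at a pseudocount of 1 and 0.1. DESeq2 and the fit without a filter each called 1 gene, Actrt2, in Kpna6-/- against WT. Actrt2 was called lower in Kpna6ΔIBB/ΔIBB against WT by DESeq2, without a filter, with the 5-count filter (met in a share of 0.47), with all 9 samples and with the replicate block (adjusted P-values 0.0146, 0.0298, 0.0462, 0.0295 and 0.0479). Actrt2 was not called with library size only (-0.056, edgeR adjusted P-value 0.423) or by limma at a pseudocount of 1 (-0.028, adjusted P-value 0.782). Apart from the spermatid scaling, the cause of these changes was not tested.

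Leaving out each sample in turn gave 7 to 8 genes called against WT, 8 to 9 between the mutants and 0 in Kpna6-/- against WT. Over all genes, 5260 to 6497, 4394 to 5735 and 92 to 518 were called, against 6874, 5673 and 299 with all samples. In Kpna6-/- against WT, 518 genes were called without WT replicate 1, 135 and 145 without WT replicates 2 and 3, and 92, 113 and 180 without Kpna6-/- replicates 1, 2 and 3. Also in that comparison the estimates changed sign for Actl7a (-0.060 to 0.027), Actl7b (-0.070 to 0.018), Ccin (-0.017 to 0.13) and Cylc2 (-0.019 to 0.10). There, DESeq2 called 477 genes, the fit without a filter 624, and limma 32 or 33.

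Scaling by library size only moved the median of all genes by 0.10 on the log2 scale, to 0.11 against WT, where the 10 genes had a median of -0.36. It called 5416 genes higher and 2326 lower against WT (main analysis 3327 and 3547) and 4931 and 2016 between the mutants (main analysis 2523 and 3150); limma on TPM called 3925 and 1622, and 3794 and 1330. Samples with the same replicate number hardly deviated together from their group means (r from -0.06 to 0.08). Such values from 3 samples per group cannot exclude that the numbers pair the samples. With the replicate block, 8, 0 and 9 of the 10 genes and 6793, 229 and 6032 of all genes were called in the 3 comparisons.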
